A study of Mus musculus with 12 samples.

Results

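The expression of 9 genes of the formative epiblast and of the Nodal pathway was followed in mouse embryonic stem (ES) cells that were brought into a paused, diapause-like state by inhibition of the mTOR kinase (mTORi). The genes were found by their symbol in the deposited tables and are the transcription factors Otx2, Pou3f1, Foxd3 and Zic2, the growth factor gene Fgf5, the ligand gene Nodal, its co-receptor gene Tdgf1 and its inhibitor genes Lefty1 and Lefty2. They are 9 of 54446 listed genes, and all 9 passed the filter, an average of 1 TPM or more across the 12 libraries, that left 15727 genes for testing. TPM is a gene's share of a library's RNA after correction for transcript length, scaled so that every library sums to 1000000, and levels of different genes can be compared within a library.

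Naive pluripotent cells of the preimplantation epiblast pass through a formative stage before they become primed for the germ layers. OTX2 and POU3F1 occupy new enhancers at that step, FOXD3 and ZIC2 act at enhancers around it, and Fgf5 is the classical marker of the epiblast after implantation. Nodal is a secreted ligand of the TGF-beta family that acts through activin receptors, SMAD2 and SMAD3 and the DNA-binding partner FOXH1, and it needs a co-receptor such as TDGF1 (Cripto). LEFTY1 and LEFTY2 are secreted inhibitors of Nodal whose genes are themselves switched on by the pathway, so that they form a negative feedback.

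The libraries fell into 6 groups of 2. The wild-type line KH and the line DNMT3ABKO, whose cells carry knockouts of the de novo DNA methyltransferase genes Dnmt3a and Dnmt3b, were each taken as untreated controls (0 h) and after 72 h and 144 h with the mTOR inhibitor INK128. No untreated culture was sampled at 72 h or 144 h, so treatment and time in culture cannot be told apart, and each genotype was a single line. The labels put the name E14 before both line names, whereas the study's methods describe a wild-type line KH2 grown, like the knockout line, on feeder fibroblasts and sorted before RNA extraction. The study describes its experiments as repeated independently, with the time points of a biological replicate handled in parallel, but the labels do not say how each numbered library was obtained.

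Between 15178 and 15811 genes per library stood at 1 TPM or above. Read depth is unknown, since TPM does not keep it. As a check of the line labels, Dnmt3b stood between 142 and 258 TPM in the KH libraries and between 12.7 and 27.5 TPM in the DNMT3ABKO libraries, and Dnmt3a between 54.7 and 144 against 7.35 to 21.9 TPM. The DNMT3ABKO libraries at 0 h differed most from each other (residual SD of 0.272 on the log2 scale, against 0.133 to 0.176 in the other 5 groups). The 7 marker genes of pluripotent cells, which were all measured above 0 in every library, summed to 2203 to 3088 TPM. The 12 marker genes of feeder fibroblasts, none of them at 0 in any library, had a mean summed level of 1119 TPM in KH cells at 0 h, 252 TPM at 72 h and 54.7 TPM at 144 h, and of 1333, 214 and 57.5 TPM in DNMT3ABKO cells. The 11 of these genes that passed the filter fell in each of the 6 comparisons over time. In a bulk library, fewer cells of a type and less RNA per cell cannot be told apart, and values of one gene rise as a share when the RNA of other genes or cells falls.

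Sequences are shown for the genes on which the results turn. Lefty1 and Lefty2 lie 35918 bases apart on chromosome 1 and share stretches of identical sequence, in which a short read cannot be assigned to either gene by its letters alone. Of the 50-base windows of transcript Lefty1-201, 17.89% occur unchanged in Lefty2-201.

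The 250 bases before the start of 3 genes follow, from RefSeq's GRCm38.p6 promoter windows. Fgf5 is shown because it fell most, and Foxd3 and Tdgf1 because their windows held the only matches to the motifs searched:
Fgf5, chr5:98253934-98254183, plus strand: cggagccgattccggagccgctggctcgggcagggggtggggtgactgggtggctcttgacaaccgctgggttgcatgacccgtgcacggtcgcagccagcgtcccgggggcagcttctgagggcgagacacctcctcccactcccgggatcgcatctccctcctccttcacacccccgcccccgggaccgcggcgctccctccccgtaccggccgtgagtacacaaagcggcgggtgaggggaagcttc
Foxd3, chr4:99656049-99656298, plus strand: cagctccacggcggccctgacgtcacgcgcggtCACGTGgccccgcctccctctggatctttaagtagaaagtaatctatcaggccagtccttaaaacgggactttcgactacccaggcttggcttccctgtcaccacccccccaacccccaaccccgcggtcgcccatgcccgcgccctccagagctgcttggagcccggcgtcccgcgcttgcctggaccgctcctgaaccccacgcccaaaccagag
Tdgf1, chr9:110946159-110946408, minus strand: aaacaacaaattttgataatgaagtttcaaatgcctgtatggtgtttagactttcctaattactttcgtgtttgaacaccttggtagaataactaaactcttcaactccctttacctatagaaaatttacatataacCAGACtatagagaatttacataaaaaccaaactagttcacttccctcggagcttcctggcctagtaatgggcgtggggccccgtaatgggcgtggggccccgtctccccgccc

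Capitals mark the matches. The motifs were searched on both strands in the windows of the 5 genes that have one in the table (Otx2 with 4 starts, Fgf5, Foxd3, Nodal and Tdgf1). The E-box CACGTG was found 217 bases before the start of Foxd3, and 6.02% of all 32841 promoter windows hold it. The SMAD motif CAGAC was found 113 bases before the start of Tdgf1, and 42.2% of all windows hold it. The FOXH1 motif AATNCACA (in 3.19% of all windows) and the octamer ATGCAAAT (in 1.60%) had no match in the 5 genes' windows. By composition, the windows of Foxd3 and Fgf5 were rich in CpG, with observed-to-expected ratios of 0.854 and 0.767 against a median of 0.374 over all windows, that of Tdgf1 stood at 0.648, and that of Nodal was poor in CpG at 0.170. The windows of Otx2 stood at 1.03 for start 3 in the table and between 0.529 and 0.550 for the other 3 starts.

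The 9 genes spanned a wide range of levels, and their order changed with time. In untreated KH cells Tdgf1 led at 364 ± 28.1 TPM (mean ± SD, n = 2), followed by Lefty2 at 75.8 ± 2.81, Lefty1 at 58.7 ± 2.399, Nodal at 47.4 ± 2.13 and Zic2 at 24.7 ± 0.576 TPM. Otx2 (12.5 ± 2.22) and Fgf5 (11.6 ± 0.186) came next and overlapped, as did Pou3f1 (8.497 ± 0.567) and Foxd3 (7.56 ± 1.47 TPM). Tdgf1 was the highest in all 6 groups, and Fgf5 was the lowest in all 4 treated groups and in untreated DNMT3ABKO cells. Nodal and Lefty1 overlapped in KH cells at 72 h, and Lefty1 and Lefty2, like Pou3f1 and Foxd3, overlapped there at 144 h. In DNMT3ABKO cells, Nodal overlapped with Zic2 and Otx2 with Foxd3 at 0 h, and Nodal with Lefty2 at 72 h, whereas no neighbours in the order overlapped at 144 h.

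**Figure D1:**
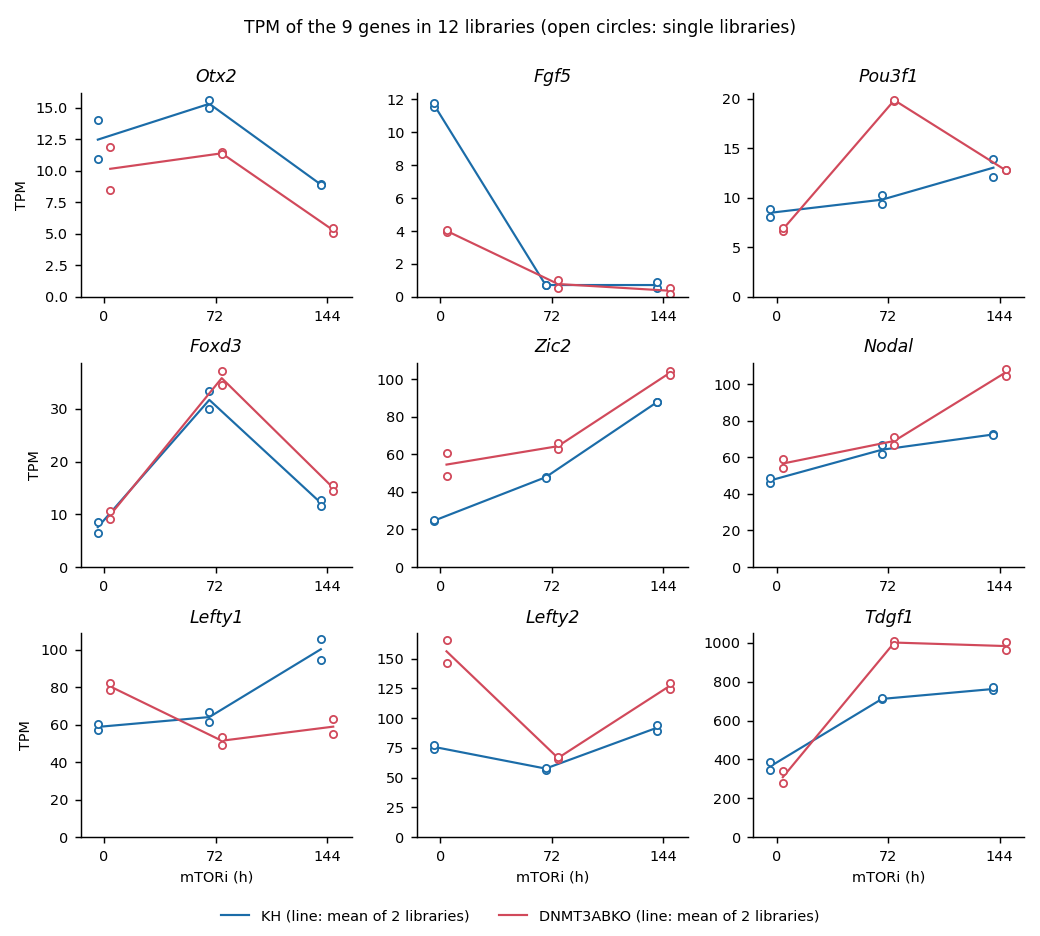
TPM (vertical axis, from 0, with its own scale in each panel) of the 9 genes against hours of mTORi in KH (blue) and DNMT3ABKO (red) cells, with open circles for single libraries, lines through the means of 2 libraries, and the lines' points set slightly apart sideways. Fgf5 drops to 1.01 TPM or less in all 8 treated libraries, Foxd3 peaks at 72 h in both lines, and Lefty1 ends higher than it began in KH and lower in DNMT3ABKO cells.

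The first question was how the genes responded to mTORi in wild-type cells. At 72 h Foxd3, Tdgf1, Zic2 and Nodal were higher than at 0 h and Fgf5 and Lefty2 were lower, so that 6 of 9 genes were called (adjusted p under 0.05 in limma, adjusted over all tested genes), where 47.8% of all tested genes were called (28.3% higher and 19.5% lower). At 144 h all 9 genes were called, 7 higher and 2 lower, against 51.3% of all genes (27.4% higher and 23.9% lower). The lower ones at 144 h were Fgf5 and Otx2. The median log2 difference of the 9 genes was 0.29 at 72 h and 0.60 at 144 h, beside 0.077 and 0.049 over all tested genes. The 7 markers of pluripotent cells had medians of 0.35 at both times, and 12 naive transcription factors 0.62 and 0.48. At 72 h both of these lists thus lay above the 9 genes, and at 144 h below them. Between 72 h and 144 h, Zic2, Lefty2, Lefty1 and Pou3f1 rose and Foxd3 and Otx2 fell. That makes 6 of 9 called, against 22.9% of all genes (7.24% higher and 15.6% lower). Of the 4 that rose, only Zic2 had also been called higher at 72 h against 0 h, and Lefty2 had been lower.

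DNMT3ABKO cells were asked the same question. At 72 h 8 of 9 genes were called, with Foxd3, Tdgf1, Pou3f1, Nodal and Zic2 higher and Fgf5, Lefty2 and Lefty1 lower, against 56.0% of all genes (34.3% higher and 21.6% lower). At 144 h all 9 were called, 5 higher and 4 lower, against 57.6% (31.4% higher and 26.2% lower). The medians of the 9 genes were 0.24 and 0.56, beside 0.12 and 0.054 over all tested genes. Those of the 7 pluripotent markers were 0.37 and 0.30, and those of the 12 naive transcription factors 0.30 and 0.51. From 72 h to 144 h Lefty2, Zic2 and Nodal rose and Foxd3, Otx2 and Pou3f1 fell (6 of 9 called, against 27.3% of all genes, 8.81% higher and 18.5% lower). These shares are of genes chosen by name, and 9 genes are too few to set apart from the rest by a count.

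The scale on which libraries are compared bears on the smaller changes. When each library was rescaled to the geometric mean of Pou5f1, Sox2, Sall4 and L1td1, genes of pluripotent cells, the median of all tested genes against 0 h moved to -0.25 in KH cells at 72 h, -0.26 at 144 h, and to -0.22 and -0.27 in DNMT3ABKO cells. The share of calls that were higher fell with it, from 59.1% to 20.3% in KH cells at 72 h, from 53.4% to 21.2% at 144 h, and from 61.3% to 27.5% and from 54.6% to 25.5% in DNMT3ABKO cells. On this scale the 72 h rises of Foxd3 were 1.58 in KH and 1.40 in DNMT3ABKO cells, and those of Tdgf1 0.58 and 1.32. The 72 h falls of Fgf5 were -3.13 and -1.78, and all of these changes were still called. Called changes that turned direction on this scale are named with each gene.

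Fgf5 encodes a fibroblast growth factor of the early postimplantation epiblast (ENSMUSG00000029337.2, mm10 chromosome 5, 98254184 to 98277030). Its level in KH cells was 11.5 and 11.8 TPM at 0 h, 0.743 and 0.704 TPM at 72 h and 0.553 and 0.893 TPM at 144 h. In DNMT3ABKO cells it was 3.97 and 4.06, then 1.01 and 0.562, then 0.564 and 0.191 TPM. All treated libraries lay below all untreated ones, and the untreated KH libraries lay above the untreated DNMT3ABKO libraries. The log2 difference from 0 h, on the log2(TPM + 1) scale used for every difference here, was -2.88 at 72 h in KH cells (95% interval -3.24 to -2.51, adjusted p = 1.52e-06) and -1.50 in DNMT3ABKO cells (-1.87 to -1.13, adjusted p = 4.49e-05). This scale understates changes of a gene that falls below 1 TPM. In KH cells 144 h differed from 72 h by -0.007 (-0.38 to 0.36, adjusted p = 0.985). In DNMT3ABKO cells the difference was -0.38 (-0.74 to -0.008) and not called (adjusted p = 0.123). The summed feeder markers went from 252 to 54.7 TPM in KH and from 214 to 57.5 TPM in DNMT3ABKO cells over that interval. Whether feeder RNA had a part in the level of Fgf5 was not tested.

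Otx2 encodes the homeodomain factor of the formative stage (ENSMUSG00000021848.16, chromosome 14, 48657677 to 48673819, minus strand). In KH cells it stood at 10.9 and 14.1 TPM at 0 h, 15.6 and 15.0 TPM at 72 h and 8.99 and 8.85 TPM at 144 h. In DNMT3ABKO cells it stood at 8.48 and 11.9, 11.5 and 11.3 and 5.11 and 5.48 TPM. In both lines the 144 h libraries were the lowest, and the 72 h libraries exceeded both 0 h libraries in KH cells only. The 72 h value did not pass the test in either line, with intervals of -0.039 to 0.61 and -0.16 to 0.49. In DNMT3ABKO cells it was 0.39 and called without DNMT3ABKO 0 h replicate 2 and -0.053 without replicate 1. From 72 h to 144 h Otx2 fell, with a difference of -0.72 in KH cells (adjusted p = 0.00637) and of -0.98 in DNMT3ABKO cells (adjusted p = 0.000774). Against 0 h the fall at 144 h was -0.43 in KH cells (adjusted p = 0.0303), where it was no longer called without KH 0 h replicate 2 (-0.26) or without either KH 144 h library (-0.44 and -0.42), and -0.81 in DNMT3ABKO cells (adjusted p = 0.000882).

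Pou3f1 encodes the POU-domain factor OCT6 (ENSMUSG00000090125.3, chromosome 4, 124656807 to 124660655). KH cells held 8.10 and 8.90 TPM at 0 h, 10.2 and 9.40 TPM at 72 h and 12.1 and 13.96 TPM at 144 h. DNMT3ABKO cells held 6.64 and 7.01, 19.8 and 19.9 and 12.8 and 12.8 TPM. The libraries ranked 0 h, 72 h, 144 h in KH cells with no overlap, whereas in DNMT3ABKO cells the 72 h libraries were the highest. The 72 h difference was 0.19 in KH cells (95% interval -0.014 to 0.39, adjusted p = 0.113) and 1.42 in DNMT3ABKO cells (adjusted p = 1.45e-06). At 144 h Pou3f1 was higher than at 0 h in both lines, by 0.56 (adjusted p = 0.000557) and 0.82 (adjusted p = 3.5e-05). From 72 h to 144 h it fell in DNMT3ABKO cells (-0.60, adjusted p = 0.000869) and rose in KH cells (0.38, adjusted p = 0.0149), the latter 0.28 and 0.32 and not called without KH 144 h replicate 2 or without KH 72 h replicate 2. Annotated genes that overlap Otx2, Pou3f1 or Foxd3 (Otx2os1, Gm49154, Gm2164 and Gm23366) stood at 1.17 TPM or less in every library.

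Foxd3 encodes a forkhead factor that acts at enhancers between the naive and primed states (ENSMUSG00000067261.4, chromosome 4, 99656299 to 99658622). It stood at 6.52 and 8.60 TPM in KH cells at 0 h, at 33.4 and 29.9 TPM at 72 h and at 12.7 and 11.6 TPM at 144 h. The DNMT3ABKO values were 10.6 and 9.15, 34.5 and 37.1 and 15.5 and 14.5 TPM. Both lines thus showed the same order, lowest at 0 h, highest at 72 h and between them at 144 h, with no overlap between time points. Foxd3 rose by 1.94 at 72 h in KH cells (a factor of 3.84 in TPM + 1, adjusted p = 2.68e-06) and by 1.76 in DNMT3ABKO cells (a factor of 3.39, adjusted p = 2.5e-06). It then fell, with differences of -1.31 and -1.20 (adjusted p = 6.19e-05 and 7.02e-05). The remaining rise at 144 h of 0.63 and 0.56 was called in both lines, and was 0.31 and 0.22 and not called on the scale of the 4 pluripotency genes.

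Zic2 encodes a zinc finger factor of primed and neural cells (ENSMUSG00000061524.8, chromosome 14, 122475435 to 122479852). In KH cells it rose from 24.3 and 25.1 TPM to 48.1 and 47.5 TPM at 72 h and to 87.8 and 87.9 TPM at 144 h. DNMT3ABKO cells began at 48.6 and 60.5 TPM and reached 62.8 and 65.9 and then 104 and 102 TPM. The levels were in the order of time in both lines, and the untreated knockout libraries were already above the 72 h libraries of KH cells. In KH cells the differences from 0 h were 0.93 and 1.79 (adjusted p = 3.6e-05 and 2.39e-07). In DNMT3ABKO cells the difference was 0.92 at 144 h (adjusted p = 1.48e-05). At 72 h it was 0.24 (adjusted p = 0.0428), and was no longer called under 15 of the 18 alternatives, among them the scale of the 4 pluripotency genes, where it turned to -0.14. Zic5, which lies 9757 bases from Zic2, gave 12.5 and 14.2, 20.9 and 21.7 and 34.0 and 33.4 TPM in KH cells. Of the 4 markers of early neural cells that passed the filter, Sox1 and Pax6 were higher at 144 h in both lines. Sox1 went from 0.492 and 0.521 TPM at 0 h to 13.3 and 13.4 TPM at 144 h in KH cells and from 0.478 and 0.599 to 4.54 and 4.95 TPM in DNMT3ABKO cells, and Pax6 from 1.80 and 2.51 to 22.0 and 24.0 and from 6.84 and 10.1 to 14.3 and 15.2 TPM. Their 144 h response was lower in DNMT3ABKO cells (-1.35, adjusted p = 0.000104, and -2.18, adjusted p = 0.000207), as was that of Zic2. The other 2, Nes and Tubb3, were lower at 144 h in both lines, and the part of such cells in the level of Zic2 was not tested.

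Nodal itself (ENSMUSG00000037171.6, chromosome 10, 61417972 to 61425338) was measured at 45.9 and 48.9 TPM in KH cells at 0 h, 66.5 and 61.9 TPM at 72 h and 73.0 and 72.2 TPM at 144 h. The DNMT3ABKO libraries held 53.9 and 59.3, 66.6 and 71.4 and 105 and 108 TPM. Its level was in the order of time in both lines without overlap. Nodal rose by 0.43 at 72 h and 0.60 at 144 h in KH cells (adjusted p = 0.000993 and 8.72e-05) and by 0.28 and 0.90 in DNMT3ABKO cells (adjusted p = 0.00814 and 3.56e-06). On the scale of the 4 pluripotency genes the 144 h rises remained (0.25 and 0.54), whereas the 72 h values were 0.050 and -0.098 and not called. In DNMT3ABKO cells the 72 h value was also not called with median-ratio scaling (0.15, adjusted p = 0.0515). The same held when only the groups in the contrast were fitted (0.28, adjusted p = 0.0892). The 72 h rise in DNMT3ABKO cells was also not called without DNMT3ABKO 72 h replicate 2 (0.23).

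Tdgf1, the co-receptor gene (ENSMUSG00000032494.12, chromosome 9, 110939603 to 110946158, minus strand), was the most abundant of the 9. KH cells held 345 and 384 TPM at 0 h, 709 and 714 TPM at 72 h and 755 and 770.3 TPM at 144 h. DNMT3ABKO cells held 278 and 339, 1012 and 991 and 964 and 1003 TPM. Every treated library lay above every untreated one, and the treated knockout libraries lay above the treated KH libraries. The rise was 0.96 at 72 h and 1.06 at 144 h in KH cells (adjusted p = 3.02e-05 and 8.99e-06) and 1.70 and 1.68 in DNMT3ABKO cells (adjusted p = 4.88e-07 and 1.97e-07). Between 72 h and 144 h it did not pass the test, with intervals of -0.10 to 0.30 in KH and -0.23 to 0.18 in DNMT3ABKO cells. The pseudogene Tdgf1-ps1, 50.86% of whose 50-base windows occur in Tdgf1-201, was listed at 10.1% to 16.4% of the Tdgf1 level, so that the split of reads between them is uncertain. The sum of both rose from 405 to 789 and 846 TPM in KH cells and from 348 to 1114 and 1083 TPM in DNMT3ABKO cells (group means).

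Lefty1 (ENSMUSG00000038793.8, chromosome 1, 180935022 to 180938400) and Lefty2 (ENSMUSG00000066652.5, chromosome 1, 180893108 to 180899103) encode the inhibitors and share the identical stretches described above. Lefty1 stood at 57.0 and 60.4 TPM in KH cells at 0 h, at 66.8 and 61.2 TPM at 72 h and at 94.5 and 106 TPM at 144 h. In DNMT3ABKO cells it stood at 82.0 and 78.7, 49.3 and 53.5 and 62.7 and 55.0 TPM. The highest libraries were those of 144 h in KH cells and those of 0 h in DNMT3ABKO cells. Lefty1 thus rose by 0.76 at 144 h in KH cells (95% interval 0.56 to 0.96, adjusted p = 7.26e-05) and fell in DNMT3ABKO cells, with a difference of -0.44 (-0.64 to -0.25, adjusted p = 0.00172). At 72 h it fell in DNMT3ABKO cells (-0.64, adjusted p = 0.000209), and the KH value of 0.12 (interval -0.077 to 0.32) was not called and turned to -0.26, called at adjusted p = 0.0456, on the scale of the 4 pluripotency genes.

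Lefty2 stood at 73.8 and 77.8 TPM in KH cells at 0 h, at 56.8 and 58.5 TPM at 72 h and at 89.4 and 94.7 TPM at 144 h. In DNMT3ABKO cells it stood at 147 and 166, 66.1 and 67.0 and 124 and 129.8 TPM. Both lines were lowest at 72 h, and the untreated knockout libraries were the highest of the 12. Lefty2 fell at 72 h, with a difference of -0.39 in KH cells (adjusted p = 0.00164) and of -1.22 in DNMT3ABKO cells (adjusted p = 9e-07). It rose again from 72 h to 144 h, by 0.67 and 0.92 (adjusted p = 0.00016 and 1.04e-05). Against 0 h this left 0.28 in KH cells (adjusted p = 0.00935) and -0.29 in DNMT3ABKO cells (adjusted p = 0.00564). The DNMT3ABKO value was not called when only the groups in the contrast were fitted (adjusted p = 0.0779). The KH value was -0.076 and not called on the scale of the 4 pluripotency genes, and 0.24 and 0.23 and not called without KH 0 h replicate 1 or without KH 144 h replicate 2.

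Because of the shared sequence the sum of both inhibitor genes is given too, a quantity chosen after the values had been seen. Lefty1 and Lefty2 together held 135 TPM in KH cells at 0 h, 122 TPM at 72 h and 192 TPM at 144 h, and 237, 118 and 186 TPM in DNMT3ABKO cells (means of 2 libraries). The lines were thus far apart in the sum at 0 h and close at 72 h and 144 h, while the ratio of Lefty1 to Lefty2 was 0.775, 1.11 and 1.09 in KH and 0.517, 0.772 and 0.464 in DNMT3ABKO cells. Set against Nodal, the summed inhibitors stood at 2.84, 1.90 and 2.65 in KH cells and at 4.18, 1.71 and 1.75 in DNMT3ABKO cells.

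**Figure D2:**
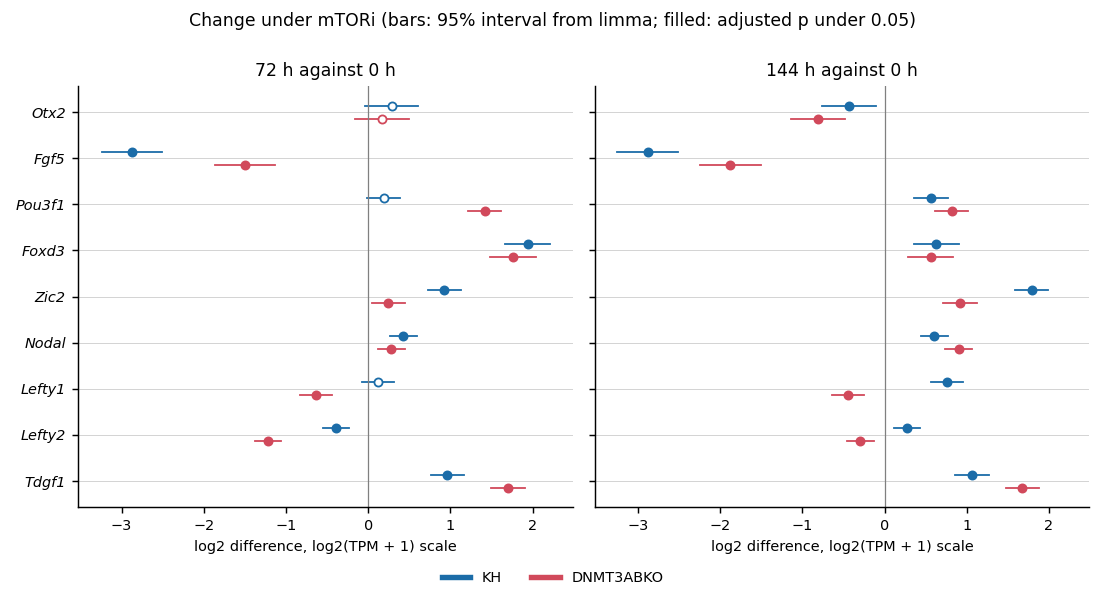
Log2 difference from 0 h on the log2(TPM + 1) scale (horizontal axis) of the 9 genes after 72 h (left) and 144 h (right) of mTORi in KH (blue) and DNMT3ABKO (red) cells. Bars are 95% intervals from limma, and filled points passed an adjusted p of 0.05. At 144 h the lines lie on opposite sides of 0 for Lefty1 (0.76 and -0.44) and Lefty2 (0.28 and -0.29).

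The next comparison asked where the 9 genes differed between cells with and without the de novo methyltransferases. At 0 h DNMT3ABKO cells held more Zic2, Lefty2 and Lefty1 and less Fgf5 than KH cells, which makes 4 of 9 genes called against 9.06% of all tested genes (4.92% higher and 4.14% lower). At 72 h Pou3f1, Tdgf1 and Zic2 were higher and Lefty1 was lower (4 of 9, against 19.3%, with 9.26% higher and 10% lower). At 144 h Nodal, Lefty2 and Tdgf1 were higher and Lefty1 and Otx2 were lower (5 of 9, against 26.5%, with 11% higher and 15.5% lower). The median difference of the 9 genes was 0.25, 0.17 and 0.23 at 0 h, 72 h and 144 h.

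At 0 h the largest differences were Fgf5 at -1.34 (-1.70 to -0.97, adjusted p = 0.000765), Zic2 at 1.10 (0.90 to 1.31, adjusted p = 4.57e-05) and Lefty2 at 1.03 (0.87 to 1.19, adjusted p = 1.54e-05). Lefty1 was higher by 0.45 (adjusted p = 0.0125), which was 0.40 and not called without KH 0 h replicate 1, and 0.49 and not called when replicate numbers entered the fit as a block in each line (adjusted p = 0.0518). Nodal lay 0.25 higher and did not pass the test (adjusted p = 0.0626). It was called with median-ratio scaling (0.30, adjusted p = 0.00794) and on the scale of the 4 pluripotency genes (0.36, adjusted p = 0.00274). The 0 h call count depended on the more variable knockout pair, since leaving out DNMT3ABKO 0 h replicate 2 raised it from 4 to 8 of 9, with Foxd3 higher and Otx2, Pou3f1 and Tdgf1 lower, and raised the count over all genes from 1425 to 5039. The feeder markers Col3a1 and Col5a1 were higher in DNMT3ABKO cells at 0 h, the other 9 tested markers did not pass, and their part in these differences was not tested.

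Under mTORi the pattern was another one. At 72 h Pou3f1 differed most, by 0.95 (0.75 to 1.15, adjusted p = 5.92e-05), with Tdgf1 at 0.49 (adjusted p = 0.00442) and Zic2 at 0.42 (adjusted p = 0.00969). Fgf5, now low in both lines, differed by 0.040 (-0.33 to 0.41). Lefty1 was lower at 72 h (-0.31, adjusted p = 0.035) and at 144 h (-0.76, adjusted p = 0.00019), after having been higher at 0 h. The calls of Zic2 and Lefty1 at 72 h were lost without either KH 72 h library and without DNMT3ABKO 72 h replicate 2, and that of Lefty1 also without DNMT3ABKO 72 h replicate 1 and on both other scales. Zic2 then lay between 0.39 and 0.43 and Lefty1 between -0.20 and -0.37. With the replicate block, Zic2 (0.37, adjusted p = 0.0602) and Lefty1 (-0.27, adjusted p = 0.173) were not called at 72 h, and neither was Tdgf1 at 144 h (0.35, adjusted p = 0.0522). At 144 h Nodal was higher by 0.55 (0.39 to 0.71, adjusted p = 0.000437), Lefty2 by 0.46 (adjusted p = 0.00122) and Tdgf1 by 0.37 (adjusted p = 0.0146), and Otx2 was lower (-0.66, adjusted p = 0.00857). Tdgf1 at 144 h was not called when any library of the 144 h groups was left out (0.34 to 0.39), nor was Otx2 without replicate 1 of either 144 h group (-0.62 and -0.65). Foxd3 did not pass between the lines at any time, with intervals of 0.077 to 0.63, -0.10 to 0.45 and 0.007 to 0.56, which leave room for a modest difference.

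**Figure D3:**
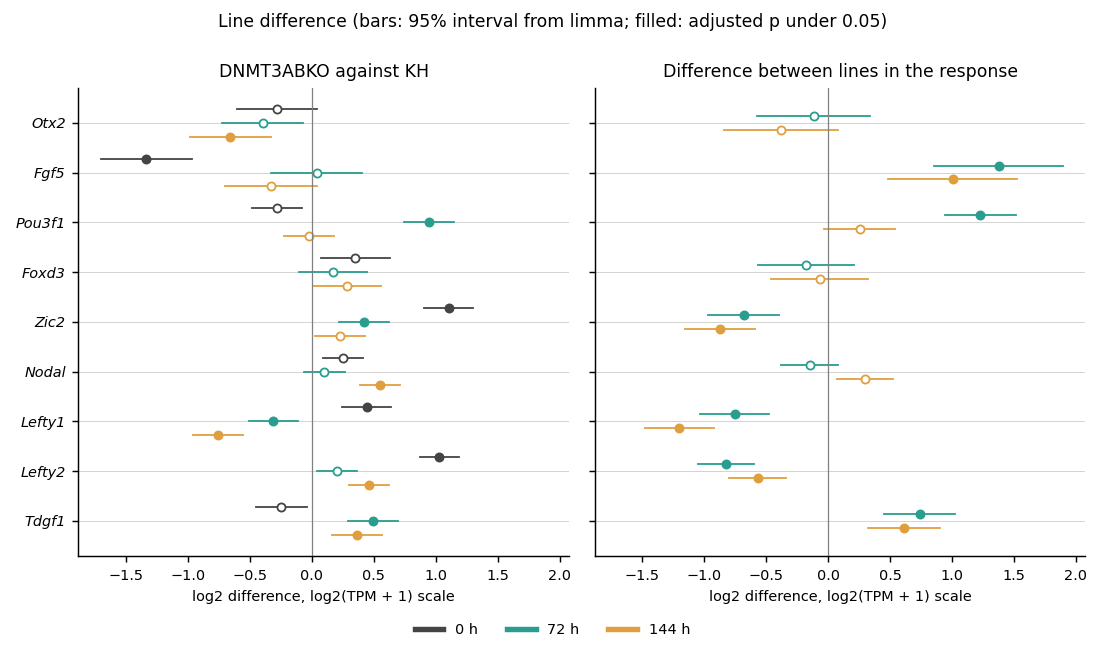
Log2 difference between lines on the log2(TPM + 1) scale (horizontal axis) of the 9 genes. On the left is DNMT3ABKO against KH at 0 h (grey), 72 h (green) and 144 h (orange), and on the right the DNMT3ABKO response minus the KH response at 72 h and 144 h. Bars are 95% intervals from limma, and filled points passed an adjusted p of 0.05. Lefty1 moves from 0.45 through -0.31 to -0.76 in the left panel.

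Whether the response to mTORi itself differed between the lines was tested as the difference of the differences. At 72 h 6 of 9 genes were called, Fgf5, Pou3f1 and Tdgf1 with a higher and Lefty2, Lefty1 and Zic2 with a lower value in DNMT3ABKO cells, against 5.23% of all genes (3.38% higher and 1.86% lower). At 144 h 5 of 9 were called, Fgf5 and Tdgf1 higher and Lefty1, Zic2 and Lefty2 lower, against 8.59% of all genes (4.89% higher and 3.7% lower). Pou3f1 had the clearest difference at 72 h (1.23, 0.94 to 1.51, adjusted p = 0.000771) and none that passed at 144 h (0.25, -0.033 to 0.54). Lefty1 differed by -0.76 at 72 h and -1.20 at 144 h (adjusted p = 0.00801 and 0.000163), and Lefty2 by -0.83 and -0.57 (adjusted p = 0.00158 and 0.007). Since both lines' responses share their own 0 h libraries, these values also carry the 0 h differences given above. Without DNMT3ABKO 0 h replicate 2 the counts over all genes were 2799 in place of 823 at 72 h and 3599 in place of 1351 at 144 h.

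The positive values of Fgf5 (1.38 at 72 h and 1.01 at 144 h) stand for a smaller fall from a lower start to a common low level. With a pseudocount of 0.1 TPM they were 1.57 (adjusted p = 0.159) and 0.64 (adjusted p = 0.526) and not called. Zic2 likewise began higher in DNMT3ABKO cells and rose less (-0.68 at 72 h and -0.87 at 144 h), the former not called without either KH 72 h library, KH 0 h replicate 1 or DNMT3ABKO 72 h replicate 1 (adjusted p = 0.0520 to 0.0650). Tdgf1 rose more in DNMT3ABKO cells, by 0.74 and 0.61, the latter not called without either KH 144 h library, KH 0 h replicate 2 or DNMT3ABKO 144 h replicate 2 (adjusted p = 0.0525 to 0.0716). Fgf5 at 144 h was not called without either KH 0 h library, KH 144 h replicate 1 or DNMT3ABKO 144 h replicate 1 (0.81 to 1.02). The responses of Foxd3 differed by -0.18 (-0.57 to 0.21) and -0.069 (-0.46 to 0.32) and did not pass. Those of Otx2 differed by -0.12 (-0.58 to 0.34) and -0.38 (-0.84 to 0.081) and did not pass. Nodal did not pass either, at -0.15 (-0.38 to 0.082) and 0.30 (0.068 to 0.53). Its 144 h value was called with median-ratio scaling (0.30, adjusted p = 0.0413) and on the scale of the 4 pluripotency genes (0.28, adjusted p = 0.0459).

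The wider Nodal pathway was described with a list of 30 further genes, of which 23 passed the filter. In KH cells 10 were called higher and 7 lower at 72 h, and 10 higher and 7 lower at 144 h (73.9% of the 23 each time, beside the 47.8% and 51.3% of all tested genes). In DNMT3ABKO cells 12 were higher and 8 lower at 72 h, and 8 higher and 8 lower at 144 h (87.0% and 69.6%, beside 56.0% and 57.6%). The receptor genes Acvr1b and Acvr2b, the ligand genes Gdf3 and Inhbb and the corepressor genes Ski and Tgif1 were higher at 72 h in both lines, while the ligand gene Inhba, the activin inhibitor gene Fst, the convertase gene Furin and the targets Eomes and T (Brachyury) were lower at both times in both lines. The list's median was 0.24 and 0.20 in KH and 0.35 and 0.091 in DNMT3ABKO cells. Rises of Foxh1, Pcsk6, Tgif2 and Ski at 72 h in KH cells, of Smad4 at 72 h and of Inhbb and Tgif2 at 144 h in DNMT3ABKO cells turned to small negative values on the scale of the 4 pluripotency genes, on which 4 list genes were higher and 9 lower at 72 h in KH cells, against 8 higher and 9 lower in the knockout. At 144 h that scale gave 4 higher and 10 lower in KH cells and 3 higher and 12 lower in DNMT3ABKO cells.

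By role, the transducers were followed first. Smad2 held 44.7 and 51.3 TPM in KH cells at 0 h and 55.1 and 55.2 TPM at 144 h. Foxh1 held 37.0 and 40.0 and then 45.6 and 43.3 TPM, and neither gene was called at 144 h against 0 h. Smad3 fell over the same time from 11.005 and 12.3 to 6.12 and 6.65 TPM (-0.78, adjusted p = 0.00044). The feedback inhibitor gene Smad7 peaked at 72 h like Foxd3, with 47.5 and 50.6, 105 and 99.3 and 56.0 and 56.4 TPM in KH cells (1.05 at 72 h, adjusted p = 5.32e-06). Among the targets, T went from 18.8 and 18.3 to 2.97 and 2.53 and 2.34 and 2.25 TPM in KH cells and from 6.22 and 6.59 to 0.512 and 0.825 and 0.282 and 0.382 TPM in DNMT3ABKO cells. Eomes went from 8.11 and 9.52 to 3.39 and 3.60 and 2.25 and 2.09 TPM in KH cells (-1.63 at 144 h, adjusted p = 3.42e-06). Mixl1 and Gsc, which were below the filter, stood at 3.18 and 3.19 and at 2.22 and 2.32 TPM in KH cells at 0 h and at 0.524 TPM or less in every treated library. These 4 targets stand also on the list of primitive streak markers, whose summed mean level was 36.8, 7.92 and 5.86 TPM in KH and 15.5, 4.14 and 3.60 TPM in DNMT3ABKO cells, so that Fgf5 fell beside them in both lines.

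Inhba and Fst fell in steps over both intervals. Inhba held 74.9 and 77.2 TPM in KH cells at 0 h, 27.1 and 28.2 TPM at 72 h and 9.40 and 7.92 TPM at 144 h, and Fst 30.03 and 33.9, 16.0 and 16.5 and 4.40 and 4.77 TPM. From 72 h to 144 h both were called lower in each line, as were the 11 tested feeder markers, whereas T, like Fgf5, did not pass in either line. The part of feeder RNA in these falls was not tested. Between the lines, 4 list genes were lower in DNMT3ABKO cells at 0 h (T, Eomes, Acvr1b and Inhbb) and none was higher. At 72 h 7 were lower and 2 higher, and 9 were lower at 144 h. These calls were 17.4%, 39.1% and 39.1% of the 23, beside 9.06%, 19.3% and 26.5% of all tested genes. Over all tested genes, lower calls also outnumbered higher ones at 144 h (2439 and 1727) and at 72 h (1573 and 1456). At 0 h they did not (651 and 774). On the scale of the 4 pluripotency genes the list's balance at 72 h turned to 4 lower and 7 higher, and 6 list genes were lower at 144 h. The response differed for Smad7 alone at 72 h (-0.44, adjusted p = 0.0452) and for Skil (-1.01, adjusted p = 0.0108) and Eomes (0.73, adjusted p = 0.0269) at 144 h. These shares of the 23 genes, 4.35% and 8.7%, lie near the 5.23% and 8.59% of all tested genes.

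**Figure D4:**
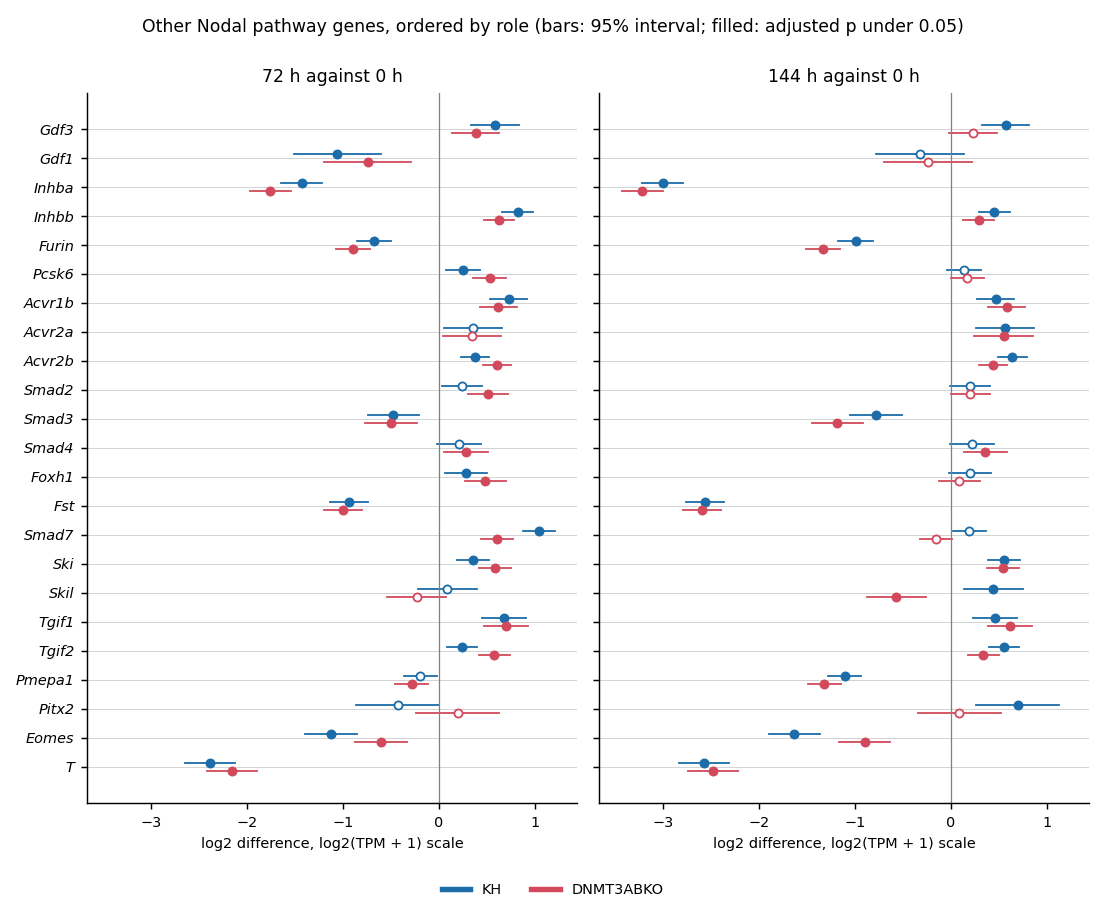
Log2 difference from 0 h on the log2(TPM + 1) scale (horizontal axis) of the 23 further Nodal pathway genes that passed the filter, ordered from ligands, convertases and receptors at the top through SMADs and inhibitors to targets at the bottom, in KH (blue) and DNMT3ABKO (red) cells. Bars are 95% intervals from limma, and filled points passed an adjusted p of 0.05. Inhba, Fst and T lie farthest to the left at 144 h in both lines, with Fst at -2.56 and T at -2.57 in KH cells.

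Another list held 20 other genes of formative and primed cells, all of which passed the filter. In KH cells 12 were higher and 6 lower at 72 h, and 13 higher and 4 lower at 144 h. That was 90.0% and 85.0% of the 20, beside 47.8% and 51.3% of all tested genes. In DNMT3ABKO cells 11 were higher and 4 lower at 72 h, and 10 higher and 6 lower at 144 h (75.0% and 80.0%, beside 56.0% and 57.6%). Its medians were 0.48 and 0.53 in KH and 0.32 and 0.26 in DNMT3ABKO cells. Over all tested genes they were 0.077 and 0.049 in KH and 0.12 and 0.054 in DNMT3ABKO cells. On the scale of the 4 pluripotency genes 9 were higher and 8 lower at 72 h in each line. Fgf8, a growth factor gene of the primitive streak, moved with Fgf5, from 16.4 and 13.8 TPM in KH cells at 0 h to 1.07 and 0.922 TPM at 72 h and 1.19 and 1.19 TPM at 144 h, and from 5.14 and 5.29 to 0.673 and 1.65 and 0.904 and 1.52 TPM in DNMT3ABKO cells. Grhl2, which encodes a grainyhead factor that opens epithelial enhancers, had the shape of Foxd3, with 15.7 and 17.3, 39.4 and 39.1 and 21.5 and 23.2 TPM in KH cells and a stronger peak in DNMT3ABKO cells (8.45 and 10.9, 59.8 and 59.3 and 27.7 and 29.7 TPM). Lef1, which encodes a nuclear partner of beta-catenin, peaked at 72 h in DNMT3ABKO cells only, like Pou3f1, and its 72 h response differed by 1.15 (adjusted p = 0.000966).

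Members of this list that differed in response included Zic5, which paralleled its neighbour Zic2 (-0.84 at 144 h, adjusted p = 0.0141), and Sall2, which at 144 h had risen in KH cells from 5.58 and 5.87 to 9.15 and 9.43 TPM and fallen in DNMT3ABKO cells from 5.35 and 5.58 to 2.01 and 2.57 TPM (-1.59, adjusted p = 5.75e-05). In all, 7 of the 20 list genes differed in the 72 h response, all with the higher value in DNMT3ABKO cells, and 7 in the 144 h response, 4 higher and 3 lower (35% each, beside 5.23% and 8.59% of all tested genes). Of the 12 naive transcription factors all were higher at 72 h than at 0 h in KH cells, and 7 were higher and 1 (Nanog) lower in DNMT3ABKO cells. That was 100% and 66.7% of the 12, beside 47.8% and 56.0% of all tested genes. On the scale of the 4 pluripotency genes these counts were 6 higher and none lower in KH and 3 higher and 5 lower in DNMT3ABKO cells. Their 72 h response was called lower in DNMT3ABKO cells for 6 of 12 (50%, beside the same 5.23%). Their 144 h response was called different for 0 of 12, beside 8.59% of all tested genes.

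**Figure D5:**
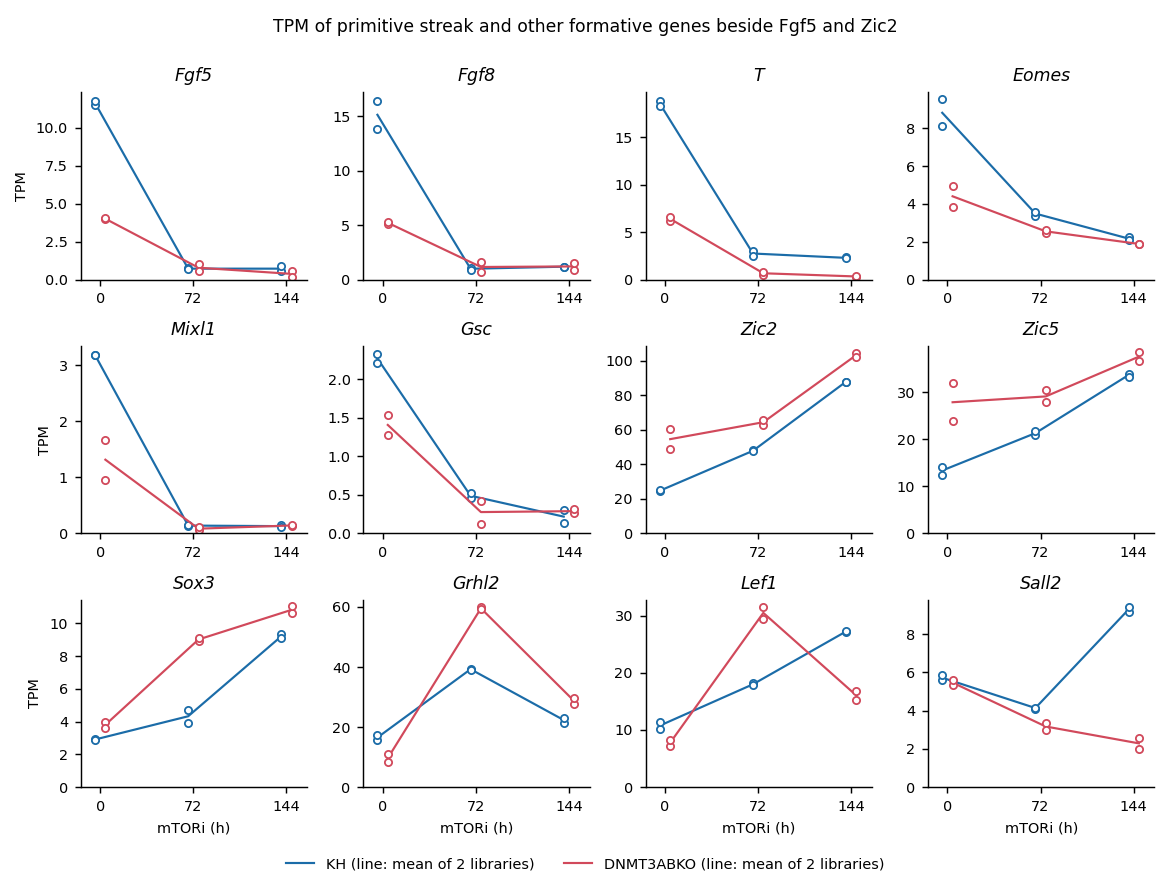
TPM (vertical axis, from 0, with its own scale in each panel) of Fgf5 and Zic2 beside 10 list genes against hours of mTORi in KH (blue) and DNMT3ABKO (red) cells, with open circles for single libraries and lines through the means of 2 libraries. Fgf5, Fgf8, T, Eomes, Mixl1 and Gsc are highest at 0 h in both lines and higher there in KH cells, and Zic5 has the shape of Zic2.

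The likeness of profiles was described by Pearson's r of log2(TPM + 1) over the 12 libraries, among 5410 genes with enough variation. The libraries share the 6 groups, so that any gene which moves with time or line will correlate, and no p is given. Among the 9 genes themselves, r was highest for Zic2 with Nodal (0.892) and Pou3f1 with Tdgf1 (0.878) and lowest for Fgf5 with Tdgf1 (-0.863). Lefty1 and Lefty2 reached only 0.385, and Nodal with Lefty1 -0.053. The genes most like each member were Noct and Dpp4 for Tdgf1 (0.994 and 0.993), Arhgef28 for Foxd3 (0.991), Fhod3 and Zic5 for Zic2 (0.988 and 0.975), Tmsb15l for Nodal (0.979), Amz2 for Otx2 (0.976), Slc25a4 and the amino acid transporter gene Slc7a5 for Fgf5 (0.969 and 0.965, of which Slc25a4 was not among the first 3 with a pseudocount of 0.1 TPM), Wt1 for Pou3f1 (0.968), Dtx1 for Lefty2 (0.943) and Hotairm1 for Lefty1 (0.922).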

How the data were processed

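RNA was extracted by the authors from sorted cells, spiked with ERCC RNA and depleted of ribosomal RNA. Per the submitters' processing notes, cutadapt 2.4, STAR 2.7.3a, StringTie 2.0 and the mm10 build were used. The deposited values are TPM per gene, 1 table per library with replicates kept apart, and each of the 12 columns summed to 1000000 without spike-in rows. A change in total RNA per cell therefore does not show in them. From spike-in normalized values, the study reported a global repression of the transcriptome under mTORi in wild-type cells. It also reported lower global transcription in the Dnmt3a/b knockout cells. The rises and falls given here are changes in a gene's share of a library's RNA, not in its amount per cell. Of the 54446 identifiers, 9 to 16 rows per table repeated an identifier and were summed.

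Values were analysed as log2(TPM + 1). Genes averaging 1 TPM or more (15727) were tested in limma 3.58.1 (lmFit, eBayes with a trend, R 4.3.3), fitting 1 mean per group, 11 contrasts and Benjamini-Hochberg adjustment across all tested genes. Genes were called at an adjusted p under 0.05, and every p printed comes from limma. DESeq2, which the authors applied, needs counts and was left out. The script was tested on simulated data. The alternatives changed 1 choice at a time: a pseudocount of 0.1 TPM, dropping the filter (37364 genes), rescaling by median ratios or to 4 pluripotency genes, only the groups in the contrast, a replicate block, and each library left out in turn.

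The members and the gene lists were chosen with earlier results of these data known. All 9 members were described, further Nodal pathway genes by role, and at most 3 high and 3 low called genes per contrast of the other formative list. Mixl1 and Gsc, which the filter removed, and Nanog, Col3a1 and Col5a1 were named after their values had been seen. Genes overlapping a member and the genes most like each member (SD of at least 0.3 over the libraries, no predicted genes) were named too. Coordinates are those of the deposited files (mm10, from 1), and promoter windows are RefSeq's. Tables and figures were made in Python 3.11.15 with NumPy 2.4.6, matplotlib 3.10.9, pandas 2.3.3 and SciPy 1.17.1. A shared sequence and part of 1 marker list are not reported here. Sox1, Pax6, Nes and Tubb3 were named after their values had been seen.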

Additional observations from a re-analysis of the deposited data

Results flagged for a closer look

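The following responses to mTORi differed between the lines by the test of the difference itself (limma, adjusted over all tested genes). Each value is the DNMT3ABKO response minus the KH response, on the log2(TPM + 1) scale. Both groups of each comparison had 2 libraries, and no test for an outlying library was made in groups of that size.

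Among the 9 genes, the 72 h response differed by 1.38 for Fgf5, 1.23 for Pou3f1 and 0.74 for Tdgf1, and by -0.68 for Zic2, -0.76 for Lefty1 and -0.83 for Lefty2. The 144 h response differed by 1.01 for Fgf5, 0.61 for Tdgf1, -0.87 for Zic2, -1.20 for Lefty1 and -0.57 for Lefty2. Lefty1 and Lefty2 had called changes of opposite direction in the 2 lines at 144 h. For Lefty2 this did not hold on the scale of the 4 pluripotency genes, where the differences were -0.076 in KH and -0.66 in DNMT3ABKO cells. The KH call of Lefty2 was also lost without KH 0 h replicate 1 or KH 144 h replicate 2. Its DNMT3ABKO call was lost when only the groups in the contrast were fitted.

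Among the other pathway genes, whose share of calls lay near that of all tested genes, the 72 h response of Smad7 differed by -0.44 and the 144 h responses of Eomes and Skil by 0.73 and -1.01. Among the other formative and primed genes, the 72 h values were 1.15 for Lef1, 1.31 for Grhl2 and 1.45 for Fgf8. The 144 h values were 1.37 for Fgf8, 1.07 for Grhl2, 0.47 for Etv4, -1.59 for Sall2, -0.84 for Zic5 and -0.54 for Sox4.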

How the results depend on the processing

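Of 99 values (9 genes in 11 contrasts), 68 were called, and 50 of these kept their direction and their call under all 18 alternatives. Another 18 lost the call in the same direction under at least 1 alternative, and 15 of the values that were not called became called under at least 1. Called values that turned direction were 3, all on the scale of the 4 pluripotency genes: Zic2 (-0.14) and Nodal (-0.098) in DNMT3ABKO cells at 72 h against 0 h and Lefty2 in KH cells at 144 h against 0 h (-0.076). The cause was not tested. On the same scale, values that had not been called turned for Otx2 at 72 h (-0.074 in KH, -0.18 in DNMT3ABKO cells), Pou3f1 (-0.16) and Lefty1 (-0.26) in KH cells at 72 h, Pou3f1 between the lines at 144 h (0.064) and Fgf5 in KH cells from 72 h to 144 h (0.0067). Among the other pathway genes it turned Foxh1 (-0.092), Pcsk6 (-0.11), Ski (-0.024) and Tgif2 (-0.14) in KH cells at 72 h, Smad4 in DNMT3ABKO cells at 72 h (-0.086), and Inhbb (-0.053) and Tgif2 (-0.023) there at 144 h.

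Median-ratio scaling turned 3 values near 0 that were not called, Tdgf1 in DNMT3ABKO cells from 72 h to 144 h (0.049), Pou3f1 between the lines at 144 h (0.024) and Fgf5 in KH cells from 72 h to 144 h (0.014). With 1 library left out in turn, 7 values that were not called took both signs. The difference in response ranged from -0.25 to 0.11 for Foxd3 at 144 h and from -0.34 to 0.10 for Otx2 at 72 h. In DNMT3ABKO cells Otx2 at 72 h against 0 h ranged from -0.053 to 0.39 and Tdgf1 from 72 h to 144 h from -0.055 to 0.0018. Between the lines Pou3f1 at 144 h ranged from -0.12 to 0.068 and Fgf5 at 72 h from -0.14 to 0.22, and in KH cells Fgf5 from 72 h to 144 h ranged from -0.15 to 0.14.

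With 1 library left out, the number of the 9 genes called ranged from 6 to 7 in KH cells at 72 h, 7 to 9 at 144 h and 5 to 7 from 72 h to 144 h, and from 6 to 9 in DNMT3ABKO cells at 72 h, while it stayed at 9 at 144 h and at 6 from 72 h to 144 h. It ranged from 3 to 8 between the lines at 0 h, 2 to 6 at 72 h and 3 to 6 at 144 h, and from 5 to 6 and 3 to 6 for the difference in the 72 h and the 144 h response. A lone library of a group was assumed to vary like the other groups. With only the groups in the contrast, 3 genes in place of 5 were called for the 144 h response.

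The replicate numbers recur in all groups, but deviations of same-numbered libraries between time points of a line correlated from -0.104 to 0.10, so that they were not treated as pairs. Between the lines the correlations ran from -0.064 to 0.336, the highest between both 0 h groups. With the replicate block, 2 genes in place of 4 were called between the lines at 72 h. Calls of Lefty1 at 0 h (0.49, adjusted p = 0.0518), Zic2 (0.37, adjusted p = 0.0602) and Lefty1 (-0.27, adjusted p = 0.173) at 72 h and Tdgf1 at 144 h (0.35, adjusted p = 0.0522) between the lines were lost under it, and no other call of the 9 genes changed. Of the further pathway genes, 2 in place of 4 were called between the lines at 0 h and 5 in place of 9 at both 72 h and 144 h.

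Over all tested genes, the count between the lines was 1425 at 0 h, 303 with only the groups in the contrast, 688 with the block and 2149 on the scale of the 4 pluripotency genes. At 72 h it was 3029, and 5143 with only these groups and 1667 with the block, and at 144 h 4166 and 2729 with the block. The difference in the 72 h response gave 823 calls, 1259 with median-ratio scaling, 437 with only these groups and 545 with the block, and that in the 144 h response 1351, 2077, 757 and, without the filter, 2099. On the scale of the 4 pluripotency genes the share of higher calls between the lines was 74.2% in place of 54.3% at 0 h, 70.8% in place of 48.1% at 72 h and 60.1% in place of 41.5% at 144 h. Since the depth is unknown, no counting error can be given for Fgf5 at its low levels under mTORi.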

Other observations

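Markers of primitive endoderm were summed as well. The 9 markers, of which 4 passed the filter on low values and none stood at 0 in any library, summed to 106 ± 5.66 TPM in KH cells at 0 h, 64.8 ± 0.197 TPM at 72 h and 47.1 ± 11.9 TPM at 144 h (SD, n = 2), and to 114 ± 0.341, 51.8 ± 0.514 and 45.0 ± 1.40 TPM in DNMT3ABKO cells. The 4 tested markers did not all move with the sums. At 144 h 1 was called higher and 2 lower than at 0 h in each line. At 72 h 1 was higher in each line, with 1 lower in KH and 2 lower in DNMT3ABKO cells. The sums were not tested, nor was their part in the levels of the 9 genes.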
